A study of Mus musculus with 18 samples.

Results

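The clustered histone genes of the mouse were followed in polyadenylated RNA of a muscle cell line before and after fusion. They were taken as the protein-coding genes whose symbol starts with Hist1h, Hist2h, Hist3h or Hist4h in the GENCODE M21 annotation, and 67 of the 55450 genes of the count table met that rule. Of these, 54 lie on chromosome 13, 10 on chromosome 3, 2 on chromosome 11 and 1 on chromosome 6. They encode 6 linker histones H1, 18 H2A, 18 H2B, 12 H3 and 13 H4. The cells were C2C12, a mouse myoblast line that proliferates in rich medium and fuses into multinucleate myotubes when serum is withdrawn. The study asked how the dosage of the Dlk1-Dio3 non-coding RNA cluster bears on the state and differentiation of these cells. The 3 lines were each measured as myoblasts (MB, growth medium with 10% fetal bovine serum) and as myotubes (MT, day 3 in 2% horse serum), and each line and stage had libraries A, B and C, 18 in all. The control, px, was a sorted population that had received the pX458 vector (Cas9 with EGFP) without a guide. Clones 2-4 and 2-7 were each grown from a single cell after editing with guide pairs against the promoter of Meg3, and of the Dlk1-Dio3 cluster the labels call 2-4 an overexpressor, 2-7 a knockout. Each genotype is therefore 1 clone, and genotype and clone cannot be told apart. The libraries of a group were at most separate cultures of the same line, so p-values measure the spread between these libraries, which may be technical.

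Most histone protein for new chromatin is made in S phase from these clustered, replication-dependent genes. Their messenger RNAs are the exception among animal messages: they usually end just after a short stem-loop, which stem-loop binding protein (SLBP) holds, and carry no poly(A) tail. Some of these genes also give longer transcripts that run past the stem-loop to an ordinary cleavage site and become polyadenylated, and such transcripts are known from cells that have left the cycle. A library made from polyA RNA therefore samples the second form and little of the first, and the counts below are no measure of total histone messenger RNA.

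The annotated 3' part of the genes was read from the GENCODE transcripts of GRCm38 first, since the libraries hold polyadenylated RNA. In 27 genes, called long here, the annotated exon ran more than 150 bases past the stop codon (154 to 4931 bases, median 822), and in 40, called short, it ended 0 to 150 bases past it (median 66). Hist1h3c (114 bases) and Hist1h2bp (150) lay just under that limit, and Hist1h4a (154) and Hist1h2ae (199) just over it. The stem-loop was taken as the 2 perfect hairpins (a stem of 6 bases and a loop of 4) found in the largest numbers of these genes after the coding sequence, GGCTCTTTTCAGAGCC in 26 and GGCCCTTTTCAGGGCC in 7. Searched on the transcribed strand, it was present letter for letter in 33 of the 67 genes and with 1 substitution in 10 more. Among all 55450 genes with a transcript sequence, 36 (0.065%) held the exact form, and the 3 outside the family were Gm20634, H2bfm and Trim17. Gm20634 overlaps exons of Hist2h3c1, and Trim17 those of Hist3h2a, on the same strand, and both histone genes held the exact form. Of the 24 histone genes without the loop in exact or substituted form, 19 had short models, which can stop before the place where it would lie. An AATAAA or ATTAAA hexamer, the usual cleavage signal, was found in the last 50 bases of 17 genes, of which 15 were long. The windows below, 5' to 3' with the 16 stem-loop bases in capitals, are from genes whose counts are described further on. The first 5 are from long models and the last 3 from short ones.
Hist1h1c: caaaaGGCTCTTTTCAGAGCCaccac
Hist1h1e: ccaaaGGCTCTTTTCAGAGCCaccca
Hist2h3c2: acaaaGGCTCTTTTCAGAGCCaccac
Hist3h2a: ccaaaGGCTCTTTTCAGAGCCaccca
Hist1h4i: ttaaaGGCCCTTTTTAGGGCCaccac
Hist1h4h: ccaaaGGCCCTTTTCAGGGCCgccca
Hist1h3c: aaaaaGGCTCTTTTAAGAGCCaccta
Hist1h2bk: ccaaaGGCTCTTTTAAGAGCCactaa
The loops of Hist1h4i, Hist1h3c and Hist1h2bk carry the single substitution, and the others are exact. The annotated transcript went on for 840 bases after the loop in Hist1h1c, 1153 in Hist1h1e, 377 in Hist2h3c2, 1643 in Hist3h2a and 330 in Hist1h4i. It went on for 46 bases in Hist1h4h, 74 in Hist1h3c and 30 in Hist1h2bk. No loop was found in the model of Hist1h2bc, the second most abundant gene below, or in that of Hist2h2be. The last 30 annotated bases of some of these genes, with the hexamer in capitals where there is one, were as follows.
Hist1h1c end: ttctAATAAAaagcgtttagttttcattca
Hist1h2be end: tgtgttccttATTAAAgcattcctgattga
Hist1h4i end: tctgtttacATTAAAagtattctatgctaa
Hist2h2be end: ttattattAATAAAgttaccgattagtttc
Hist1h2ae end: ccAATAAAtgggtcaatttttttcagattc
Hist1h1a end: tataaataacccaacggctcttttcagagc
Hist1h2bk end: actaaaccaccagtattagagctgcaaaca
The first 5 of these ends hold a hexamer close to the last base. The annotated end of Hist1h1a falls inside its stem-loop, and that of Hist1h2bk lies shortly after it, with no hexamer in either window. A hexamer in this window describes the annotated model and is not a mapped cleavage site.

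Depth was 41544358 to 79140702 counts per library, so that 3 counts, the limit set here for a gene to be called detected, stood for 0.0375 to 0.0693 CPM (counts scaled to library size, with TMM factors of 0.895 to 1.08). Muscle markers followed the labels, with a summed level over 10 genes of 1577 to 1836 CPM in control myoblasts and 18053 to 18924 CPM in control myotubes. In the myoblasts of clone 2-7 the same sum was already 13659 to 16800 CPM, against 2992 to 3803 CPM in those of clone 2-4. In myotubes it was 28636 to 32282 CPM in 2-4 and 40904 to 50132 CPM in 2-7. Markers of adipocytes summed to 12.7 to 51.6 CPM, those of immune cells to 0.97 to 2.67 CPM, those of endothelial cells to 0.04 to 0.67 CPM and those of epithelial cells, 1 of 5 at 0 in every library, to 0.12 to 2.38 CPM. Reads of near-copies limit the histone values: under 50% of the 50-base words were unique among annotated transcripts in 30 of the 67 genes, and exons of another gene overlapped those of 24, all 18 H2A genes among them. Neither the treatment of reads that fit several genes nor the use of strand is given in the sources used here, so values of those genes are uncertain.

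Counts of this family were scarce in the polyA libraries and came mainly from a pair of genes. All 67 genes together took 0.00743% to 0.0316% of the counts of a library. In the control line their summed level was 102 ± 15.6 CPM in myoblasts and 332 ± 21.9 CPM in myotubes (mean ± SD, n = 3), a ratio of 3.25. The corresponding levels were 85.4 ± 4.29 and 146 ± 6.90 CPM in clone 2-4, a ratio of 1.71, and 73.1 ± 1.80 and 125 ± 8.96 CPM in clone 2-7, a ratio of 1.70. These are bulk libraries, in which a change in the share of cells that express a gene and a change in the RNA per cell cannot be told apart. Hist1h1c, which encodes linker histone H1.2, made up 61.2% to 72.7% of the sum in every library. Without Hist1h1c and Hist1h2bc, an H2B gene, the sum of the other 65 genes was 18.4 CPM in control myoblasts and 30.4 CPM in control myotubes. That remainder was lower in the myotubes than in the myoblasts of both clones, at 15.4 against 19.6 CPM in 2-4 and 11.6 against 13.3 CPM in 2-7. The ratio of myotubes to myoblasts therefore fell from 1.71 to 0.784 in 2-4 and from 1.70 to 0.868 in 2-7 once this pair of genes was left out, and stayed above 1 only in the control line, at 1.65. The 40 short genes together gave 4.24 CPM in control myoblasts and 3.91 CPM in control myotubes.

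**Figure D1:**
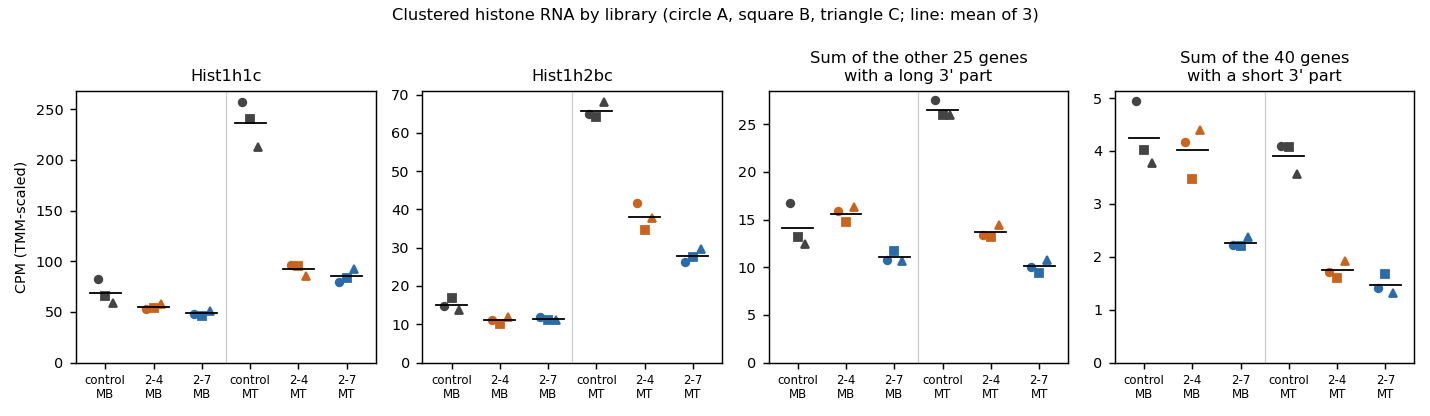
Summed or single-gene level (CPM, y axis from 0) of Hist1h1c, Hist1h2bc, the other 25 long genes and the 40 short genes in each of the 18 libraries, with a line at the mean of 3. Control myotubes (MT, grey) stand above every other group for Hist1h1c, Hist1h2bc and the other long genes, while the short genes of control myotubes (3.57 to 4.09 CPM) overlap those of control myoblasts (3.76 to 4.94 CPM).

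Both kinds of gene model had counts in the polyA libraries. The counts cannot tell RNA with a tail from RNA without one that stayed in such a library, and this was not tested. In control myoblasts 34 genes were above 3 counts in every library, 20 of the 27 long and 14 of the 40 short, and in control myotubes 22 were, 15 long and 7 short. The numbers were 30 and 19 for myoblasts and myotubes of clone 2-4, and 21 and 16 for those of clone 2-7. The genes detected in all 6 groups numbered 15, 14 of them long, and 27 genes were detected in none. Counts of 0 in all 18 libraries were found for 7 genes (Hist1h2aa, Hist1h2ao, Hist1h2ap, Hist1h2bq, Hist1h2br, Hist2h2aa1 and Hist2h3c1), which allows up to 3 counts each and covers counting error only. In Hist1h2ao, Hist1h2ap, Hist1h2bq, Hist1h2br and Hist2h2aa1 only 2.7% to 11.3% of the 50-base words were unique. Gm20634 overlaps all 1825 exon bases of Hist2h3c1 on the same strand. For these genes a count of 0 is no sign of absent RNA, as the treatment of shared reads is not known. A mean of at least 1 CPM was reached by 6 genes in control myoblasts and by 11 in control myotubes, and every gene that reached it in any group was long. CPM is not divided by exon length, so a longer model can collect more reads, and the part of this was not tested. The short gene Hist1h4h came to 0.996 CPM in control myotubes. The short models also shared more sequence with other genes, with a median of 36.9% unique 50-base words against 77.9% for the long ones, and the part of this in their lower counts was not tested.

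Levels of different genes were compared per kilobase of exon. On that scale Hist1h1c led in every group, with 44.1 CPM per kilobase in control myoblasts and 152 in control myotubes. Hist1h2bc followed with 13.1 and 56.8 CPM per kilobase, and then Hist1h4i, an H4 gene, with 4.19 and 5.10. Hist3h2a, an H2A gene of the small cluster on chromosome 11, came at rank 4 in control myoblasts at 1.03 CPM per kilobase. In control myotubes the H3 gene Hist2h3c2 (3.42 CPM per kilobase) had rank 4, Hist3h2a (2.20) rank 5 and Hist1h4h (2.12) rank 6. The median of the 27 long genes was 0.223 CPM per kilobase in control myoblasts and 0.168 in control myotubes, and that of the 40 short genes 0.186 and 0.0691. Dividing by coding length in place of exon length kept the leading pair and moved lower-ranked genes, for example Hist1h4k from rank 5 to rank 19 in control myoblasts.

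**Figure D2:**
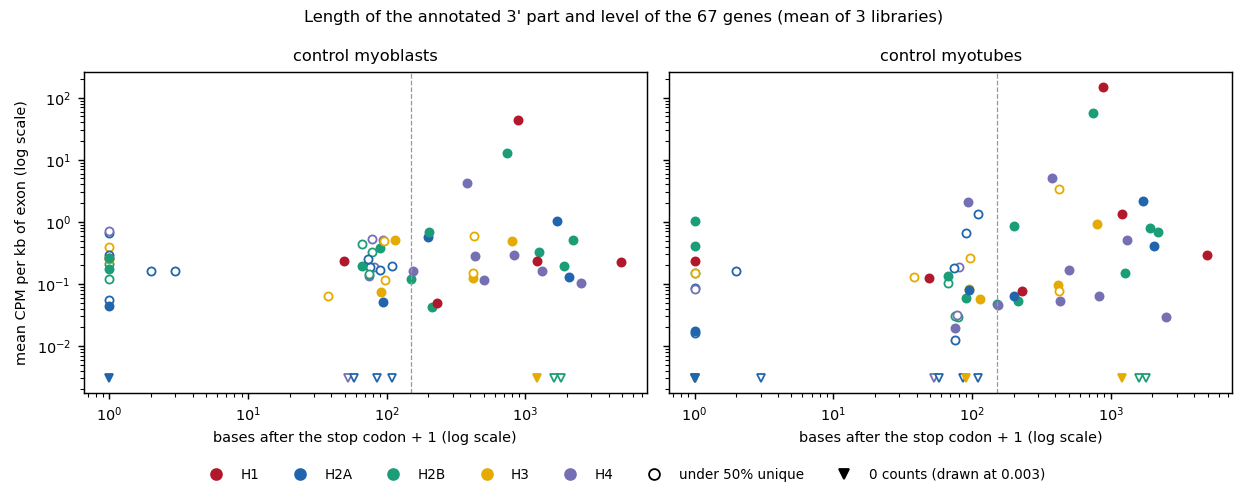
Mean level per kilobase of exon (CPM, log axis) of each of the 67 genes against the annotated bases after its stop codon plus 1 (log axis), in control myoblasts and control myotubes. The dashed line is at 150 bases, open symbols are genes with under 50% unique sequence, triangles are genes with 0 counts, and Hist1h1c (44.1 and 152 CPM per kilobase) and Hist1h2bc (13.1 and 56.8) are the highest points of both panels.

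Differentiation of the control line raised 13 histone genes and lowered 12, so that 25 changed of 32 that had enough counts to be tested. A gene counted as changed when its Benjamini-Hochberg adjusted p from edgeR's quasi-likelihood test was under 0.05 over all 17912 genes tested. Over all genes 62.8% changed, and 33.9% were higher and 28.8% lower in myotubes by the same rule, so the share of changed histone genes, in both directions, was somewhat above a background that was itself large. The median log2 fold change was 0.30 for the 32 histone genes and 0.07 for all genes. Of the 18 long genes tested, 9 rose and 4 fell, with a median of 0.64, and of the 14 short genes tested 4 rose and 8 fell, with a median of -2.63. A scarce gene that passed the low-count filter through its myoblasts alone had to fall, so this split only describes the tested genes. With genes at 0 in a whole group set to the bound that 3 counts allow, and those at or under 3 counts in both groups left out, these medians were 0.87 and -1.96. Among the 17 tested genes with at least 50% unique 50-base words and no exon overlap, a subset chosen after seeing the data, 5 rose and 5 fell. Their share of changed genes, both directions together, was under that of all genes. The same was so with a filter of 1 CPM in 3 libraries, so the excess among the 32 genes did not hold in these sets. Scaling by library totals in place of TMM moved the median of all genes to -0.17 and turned the split over all genes from 6074 higher and 5166 lower to 4336 and 7091.

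Among the H1 genes, 2 of 5 tested rose and none fell. Hist1h1c (chr13:23738808-23740367, plus strand, GRCm38) is a single exon with 880 bases after the stop codon. Its level was 82.5, 65.2 and 58.5 CPM in libraries A, B and C of control myoblasts and 257, 240 and 212 CPM in those of control myotubes. Every myotube library was above every myoblast library, with the myoblast library A nearest to them. The log2 fold change was 1.78 ± 0.11 (SE), or 3.44-fold (adjusted p = 5.4e-11). Hist1h1e (chr13:23620629-23622558, minus strand), which encodes H1.4, went from 0.449, 0.385 and 0.512 CPM to 2.58, 2.24 and 2.94 CPM without overlap. Its log2 fold change was 2.53 ± 0.26 (adjusted p = 9.1e-08), and its exons overlap 816 bases of those of Hist1h2be and Gm11398 on the same strand. Hist1h1d (chr13:23553262-23560686), which encodes H1.3 and has the longest 3' part of the family, 4931 bases, gave 2.55, 1.31 and 1.11 CPM in myoblasts and 2.12, 2.33 and 2.02 CPM in myotubes. These overlapped, and the difference did not pass the test (log2 fold change 0.37 ± 0.31, adjusted p = 0.30). The 2 H1 genes with short models, Hist1h1a and Hist1h1b, had at most 15 counts in any library of the control line. Hist1h1t, the testis linker histone, had 2, 5 and 0 counts in control myoblasts and 4, 6 and 0 in control myotubes and was not tested.

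The H2A and H2B genes moved in both directions. Of the 9 H2B genes tested, 3 rose and 3 fell, and of the 6 H2A genes 4 rose and 2 fell. Hist1h2bc (chr13:23684199-23692908, plus strand) gave 14.9, 16.8 and 13.8 CPM in control myoblasts and 64.9, 64.1 and 67.9 CPM in control myotubes. The myotube libraries lay close together and far above the myoblasts, at a log2 fold change of 2.11 ± 0.09 (4.33-fold, adjusted p = 4.7e-13). Hist1h2be, another H2B gene, went from 0.674, 0.981 and 0.913 CPM to 4.26, 3.34 and 3.08 CPM, with no overlap of the groups (2.06 ± 0.28, adjusted p = 3.7e-06). Its exons overlap those of Hist1h1e, which also rose, and Gm11398 on the same strand, so part of its counts could belong to those genes. Hist2h2be (chr3:96221119-96223738), which encodes an H2B from the second cluster, gave 1.61, 0.981 and 1.38 CPM against 1.57, 1.79 and 1.95 CPM. Its groups overlapped, and it did not pass the test (0.42 ± 0.21, adjusted p = 0.098). Hist3h2a (chr11:58954685-58956830) rose from 2.17, 2.13 and 2.34 CPM to 4.72, 4.71 and 4.76 CPM, at 1.10 ± 0.14 (adjusted p = 1.9e-06). Its exons overlap those of Trim17 and Gm44313. Hist1h2ac, an H2A gene that overlaps Gm24991 and Gm44350, rose from 0.562, 0.192 and 0.2 CPM to 1.14, 1.12 and 0.776 CPM (1.64 ± 0.40, adjusted p = 0.0016). The highest myoblast library, A, stayed under the lowest myotube library, C. Hist3h2ba, the H2B neighbour of Hist3h2a, stayed at or under 3 counts in all 6 control libraries.

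The core histones H3 and H4 were split as well: 2 of 5 tested H3 genes rose and 3 fell, and 2 of 7 tested H4 genes rose and 4 fell. Hist2h3c2 (chr3:96238108-96239127) rose from 0.506, 0.692 and 0.624 CPM to 3.49, 3.59 and 3.37 CPM. The groups were far apart, with a log2 fold change of 2.52 ± 0.23 (5.73-fold, adjusted p = 1.8e-08). Only 36.5% of its 50-base words were unique, the rest being shared mostly with Gm20634, so part of its counts could belong to that gene. Hist1h3d went from 0.805, 0.692 and 0.379 CPM to 1.55, 1.05 and 0.848 CPM, a rise of 0.87 ± 0.33 (adjusted p = 0.028). This call was lost without myoblast library C (0.62, adjusted p = 0.13), without myotube library A (0.58, adjusted p = 0.17) or with library totals (0.62, adjusted p = 0.10). Hist1h4h, a short gene whose model ends 46 bases after its loop, rose from 0.262, 0.211 and 0.245 CPM to 1.04, 1.01 and 0.938 CPM (2.04 ± 0.32, adjusted p = 2.3e-05). Hist1h4i, the most abundant H4 gene, gave 3.76, 3 and 2.38 CPM in myoblasts and 4.22, 3.14 and 3.77 CPM in myotubes. These overlapped and did not pass the test (0.28 ± 0.18, adjusted p = 0.18). Hist4h4, the family's 1 gene on chromosome 6, had 19, 20 and 7 counts in control myoblasts and 2, 7 and 3 in control myotubes and was not tested.

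The 12 genes that fell were all scarce, with at most 43 counts per library in control myoblasts, and 8 of them had short models. Hist1h2ae, a long H2A gene, had 31, 14 and 16 counts in control myoblasts and 1, 2 and 4 in control myotubes. Its log2 fold change was -3.07 ± 0.60 (adjusted p = 0.00017), and the groups did not overlap. Hist1h3g, an H3 gene, went from 17, 14 and 9 counts to 2, 1 and 4 (-2.47 ± 0.60, adjusted p = 0.0012). Hist1h3c had 23, 7 and 18 counts against 2, 3 and 0, Hist1h4k 15, 8 and 10 against 2, 1 and 1, and Hist1h2bk 8, 5 and 10 against 1, 1 and 0. All 3 passed the test, but in myotubes they lay at or under 3 counts. Hist1h3h fell from 10, 11 and 4 counts to 0 in all 3 myotube libraries, which makes it at least 2.72-fold lower when each library is allowed 3 counts. Hist1h2bh (-1.13 ± 0.37) showed the smallest fall among the 12.

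**Figure D3:**
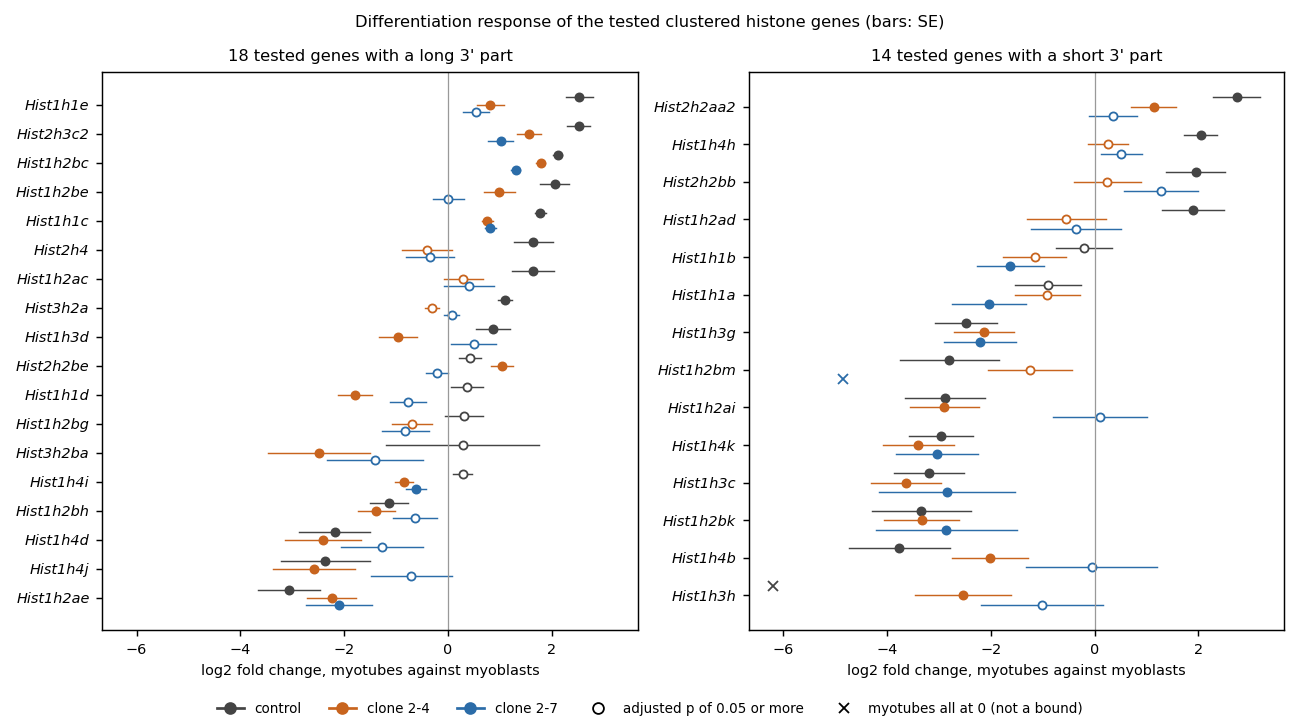
Log2 fold change from myoblasts to myotubes, with SE bars, of the 18 long and 14 short histone genes tested, in the control line and both clones (filled symbols pass an adjusted p of 0.05). In the control line 9 long genes lie to the right with filled symbols, Hist1h1e at 2.53 among them, and 8 short genes lie to the left.

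On differentiation of the clones, 7 histone genes rose and 15 fell in 2-4, and 3 rose and 9 fell in 2-7. Over all genes tested 62.8% changed in 2-4, 29.8% being higher and 33.0% lower, and 65.4% in 2-7, 29.8% higher and 35.6% lower. The medians of the 32 genes were -0.93 in 2-4 and -0.49 in 2-7, against -0.02 and -0.08 for all genes. Hist1h1c, Hist1h2bc and Hist2h3c2 rose in all 3 lines. Hist1h1c went from 53.1, 53.5 and 57.7 CPM to 96.4, 95.6 and 85.4 CPM in 2-4, at 0.76 ± 0.10 (adjusted p = 4.4e-06). In 2-7 it went from 48.4, 46.3 and 50.7 CPM to 79.1, 83.6 and 92.6 CPM, at 0.81 ± 0.10 (adjusted p = 2.5e-06). Both rises were without overlap, at 1.69-fold and 1.76-fold. Hist1h2bc rose from 11.1, 10.2 and 11.9 CPM to 41.7, 34.5 and 37.8 CPM in 2-4 (1.78 ± 0.09) and from 11.8, 11 and 11.1 CPM to 26.3, 27.6 and 29.7 CPM in 2-7 (1.30 ± 0.09). Hist2h3c2 rose by 1.56 ± 0.23 in 2-4 and 1.01 ± 0.23 in 2-7 on the log2 scale.

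Several genes that rose or held in the control line fell in clone 2-4. Hist1h1d went from 1.66, 2.42 and 2.29 CPM in 2-4 myoblasts to 0.297, 0.888 and 0.611 CPM in its myotubes. The groups did not overlap and the log2 fold change was -1.80 ± 0.33 (adjusted p = 9.9e-05). Hist1h4i fell in both clones, by 0.84 ± 0.18 on the log2 scale in 2-4 (adjusted p = 0.00046) and by 0.61 ± 0.19 in 2-7 (adjusted p = 0.0096), the second call being lost without library A of the 2-7 myotubes (adjusted p = 0.056). Hist1h3d fell in 2-4, by 0.96 ± 0.36 (adjusted p = 0.028), and is the 1 gene called in opposite directions in different lines. That fall was lost when library A or C of the 2-4 myoblasts, or A or B of the 2-4 myotubes, was left out (adjusted p between 0.075 and 0.12). Hist2h2be rose in 2-4, from 1.74, 0.971 and 1.09 CPM to 2.57, 2.8 and 2.47 CPM (1.04 ± 0.21, adjusted p = 0.00026). In 2-7 it gave 1.48, 1.84 and 1.9 CPM in myoblasts and 1.62, 1.54 and 1.36 CPM in myotubes (-0.21 ± 0.21, adjusted p = 0.39). Hist1h1e rose in 2-4 (0.82 ± 0.26, adjusted p = 0.011), and in 2-7 its change was 0.53 ± 0.25 (adjusted p = 0.071). Hist1h2be rose in 2-4 (0.99 ± 0.30, adjusted p = 0.0076) although its groups overlapped, and stood at 0.01 ± 0.30 in 2-7. Hist1h2ae, Hist1h2bk, Hist1h3c, Hist1h3g and Hist1h4k fell in all 3 lines, from at most 32 counts per library. In 2-7 the calls of Hist1h2bk and Hist1h3c depended on a single count in the myotubes and were lost when libraries were left out. Hist1h1a and Hist1h1b fell in 2-7 alone by call (-2.03 ± 0.71 and -1.62 ± 0.65), and Hist3h2ba in 2-4 (-2.49 ± 0.98), each from 15 or fewer counts and lost when 1 library was left out.

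**Figure D4:**
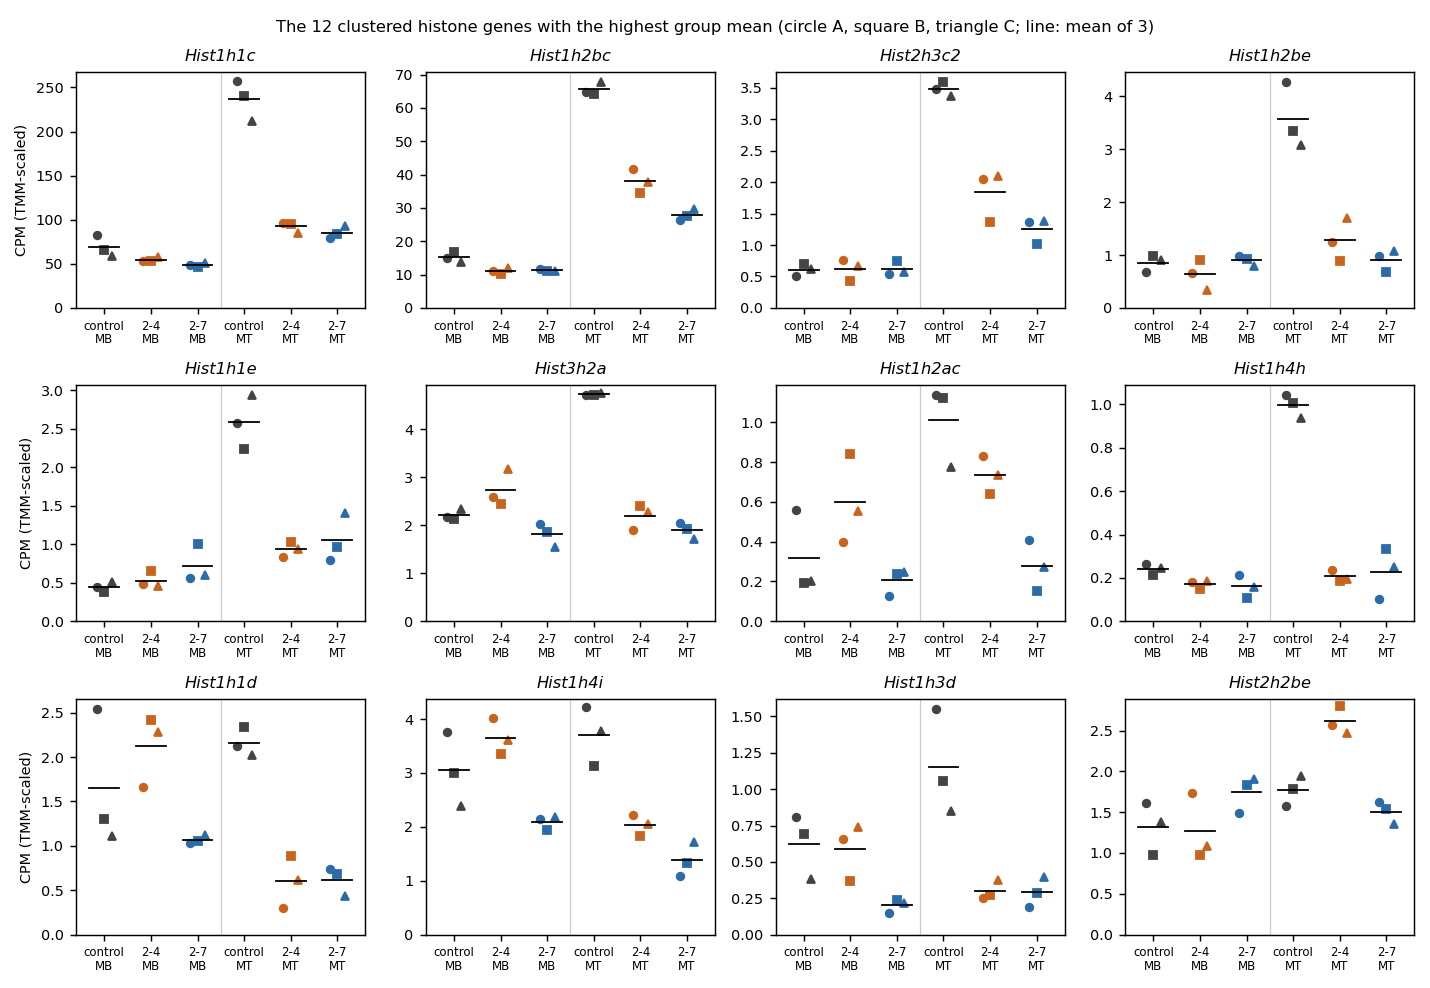
Level (CPM, TMM-scaled, y axes from 0) of the 12 histone genes with the highest group mean, by library, with a line at the mean of 3, for myoblasts (MB) and myotubes (MT) of the control line and clones 2-4 and 2-7. Control myotubes lie above both clones' myotubes without overlap for Hist1h1c (212 to 257 against 79.1 to 96.4 CPM), and Hist2h2be is highest in 2-4 myotubes (2.47 to 2.8 CPM).

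Fewer histone genes passed the test between the myoblasts of a clone and those of the control line than between myotubes. The comparisons of both clones use the same control libraries. Clone 2-4 had 0 genes higher and 2 lower, Hist1h1c and Hist1h2bc, where 40.4% of all genes differed, 20.7% higher and 19.7% lower. Hist1h2bc was lower by 0.46 ± 0.09 on the log2 scale (adjusted p = 0.00044), and Hist1h1c by 0.33 ± 0.10 (adjusted p = 0.017). The second call was lost without control library A (adjusted p = 0.15) or 2-4 library A (adjusted p = 0.057). Clone 2-7 had 1 gene higher and 8 lower, against 26.4% and 26.6% of all genes (53.0% together). With DESeq2 size factors the split was 0 higher and 8 lower. The median log2 difference of the 32 genes was -0.06 in 2-4 and -0.63 in 2-7, and that of all genes 0.02 in each. Hist1h1c was lower by 0.50 ± 0.10 (adjusted p = 0.00049), Hist1h2bc by 0.42 ± 0.09 (adjusted p = 0.00058) and Hist1h4i by 0.54 ± 0.18 (adjusted p = 0.018) on the log2 scale, the last lost without control library A (adjusted p = 0.13) or 2-7 library B (adjusted p = 0.066). Hist1h3d was lower, with 0.151, 0.237 and 0.214 CPM in 2-7 against 0.805, 0.692 and 0.379 CPM in the control (-1.63 ± 0.40, adjusted p = 0.0019). Hist1h1e was the gene called higher in 2-7 (0.70 ± 0.28, adjusted p = 0.044), a call that rested on library B (without it 0.38, adjusted p = 0.30). Hist1h3c, with 3, 2 and 4 counts in 2-7 and 23, 7 and 18 in the control, was also lower (adjusted p = 0.0019). In 2-7 myoblasts the summed muscle markers, as given above, lay between the ranges of control myoblasts and control myotubes, and 15 of 24 genes of DNA synthesis and proliferation were lower than in control myoblasts. The part of these in the histone values was not tested.

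More histone genes differed between lines in myotubes than in myoblasts, as was so for all genes, and almost all were lower in the clones. In each clone 16 of the 32 were called, a share under that of all genes. In 2-4 myotubes 15 of the 32 genes were lower and 1 higher than in control myotubes, against 30.9% and 26.2% of all genes (57.1% together). In 2-7 myotubes 16 were lower and 0 higher, against 37.0% and 31.0% of all genes (68.0% together). The median log2 difference of the 32 genes was -0.81 for 2-4 and -1.38 for 2-7, and that of all genes -0.04 and -0.07. Without the genes at or under the floor in these groups the medians were -0.87 and -1.44. Genes lower in both clones, each against the same 3 control libraries, included Hist1h1c, Hist1h1d and Hist1h1e of the H1 genes, Hist1h2bc and Hist1h2be of H2B, Hist3h2a of H2A, Hist1h3d and Hist2h3c2 of H3, and Hist1h4h, Hist1h4i and Hist2h4 of H4. The share of all genes lower in both clones is not given here. Of the 18 long genes tested 11 were lower in 2-4 and 12 in 2-7, and of the 14 short ones 4 in each. Other lists differed between the same libraries. Of 10 muscle markers 8 were higher in 2-4 myotubes and 9 in 2-7 myotubes, and none lower. Of 10 genes of general polyadenylation 0 were higher and 4 lower in 2-4, and 1 was higher and 7 lower in 2-7. The summed level of that list was 1552 to 1782 CPM in control myotubes, 846 to 983 CPM in 2-4 and 781 to 931 CPM in 2-7. Most of that sum was Pabpc1, the cytoplasmic poly(A)-binding protein, named here after its values were seen, at 1202 ± 84.4, 504 ± 34.4 and 551 ± 55.6 CPM in the same order (mean ± SD, n = 3). The part of these lists in the histone values was not tested.

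Hist1h1c stood at 96.4, 95.6 and 85.4 CPM in 2-4 myotubes and 79.1, 83.6 and 92.6 CPM in 2-7 myotubes, against 257, 240 and 212 CPM in control myotubes. The clones did not reach even the lowest control library, at log2 differences of -1.35 ± 0.10 (2.56-fold lower, adjusted p = 3e-09) and -1.47 ± 0.11 (2.78-fold lower, adjusted p = 8.5e-10). Hist1h2bc was lower by 0.79 ± 0.09 in 2-4 (adjusted p = 3.1e-07) and by 1.24 ± 0.09 in 2-7 (adjusted p = 7.5e-10) on the log2 scale. Hist3h2a gave 1.9, 2.41 and 2.28 CPM in 2-4 and 2.05, 1.93 and 1.71 CPM in 2-7, where all 3 control libraries lay at 4.71 to 4.76 CPM. Its differences were -1.10 ± 0.14 and -1.32 ± 0.14 (adjusted p = 1.7e-06 and 2.1e-07). Hist1h1e gave 0.832, 1.03 and 0.945 CPM in 2-4 and 0.802, 0.971 and 1.4 CPM in 2-7, against 2.58, 2.24 and 2.94 CPM. No clone library reached the control range, and the differences were -1.47 ± 0.23 and -1.30 ± 0.23. Hist1h4h was at 0.238, 0.188 and 0.194 CPM in 2-4 and 0.102, 0.335 and 0.251 CPM in 2-7, close to the myoblast levels of all 3 lines, and differed by -2.26 ± 0.32 and -2.11 ± 0.32 from control myotubes. Hist2h4, a long H4 gene on chromosome 3, had 33, 34 and 58 counts in control myotubes, 5, 9 and 12 in 2-4 and 9, 10 and 5 in 2-7. Its log2 difference from the control was -2.77 ± 0.39 in 2-4, and -2.49 ± 0.40 in 2-7. Hist2h2aa2, an H2A gene with no unique 50-base word, had 50, 23 and 37 counts in control myotubes, 28, 25 and 33 in 2-4 and 17, 13 and 8 in 2-7 (-1.65 ± 0.39 in 2-7, adjusted p = 0.0012). In 2-4 its difference of -0.86 ± 0.36 (adjusted p = 0.049) was lost with either other scaling (adjusted p = 0.080 and 0.10) and without control library A (adjusted p = 0.23).

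Clone 2-4 and clone 2-7 did not match in every gene. Hist2h2be was the 1 gene higher in 2-4 myotubes, with 2.57, 2.8 and 2.47 CPM against 1.57, 1.79 and 1.95 CPM in the control (0.56 ± 0.20, adjusted p = 0.023). The call was lost without control library A (adjusted p = 0.089) or B (adjusted p = 0.051), or 2-4 library B (adjusted p = 0.065). In 2-7 the same gene stood at -0.23 ± 0.21 (adjusted p = 0.34). Hist1h2ac, at 0.41, 0.151 and 0.272 CPM, was lower in 2-7 (-1.85 ± 0.41, adjusted p = 0.00055), and in 2-4 it stood at -0.46 ± 0.35 (adjusted p = 0.29). The clones were not tested against each other.

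The difference between the responses was tested as an interaction. The change from myoblasts to myotubes was lower than in the control line for 11 of the 32 genes in 2-4, and higher for 0, against 22.3% and 16.6% of all genes (39.0% together). In 2-7 it was lower for 11 and higher for 1, against 29.9% and 20.2% (50.1% together). A lower response was called in both clones for Hist1h1c, Hist1h1d, Hist1h1e, Hist1h2bc, Hist1h2be, Hist1h4h, Hist1h4i, Hist2h3c2, Hist2h4 and Hist3h2a. Both clones were set against the same control libraries, so these calls are not independent. The share of all genes with a lower response in both clones is not given here. For Hist1h1c the response was lower by 1.03 ± 0.15 in 2-4 (adjusted p = 1.8e-05) and by 0.97 ± 0.15 in 2-7 (adjusted p = 3e-05) on the log2 scale. For Hist3h2a, which rose 2.14-fold in the control line and changed in neither clone by the test, it was lower by 1.41 ± 0.20 (adjusted p = 1.7e-05) and 1.02 ± 0.20 (adjusted p = 0.00047). The smallest called difference was that of Hist1h2bc in 2-4, -0.33 ± 0.12 (adjusted p = 0.042), and it was lost with either other scaling (-0.22, adjusted p = 0.22, with DESeq2 size factors).

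The genes that surround histone supply were counted beside the family. All 24 genes of a list of DNA synthesis and proliferation fell in all 3 lines, with medians of -3.12 in the control line, -1.95 in 2-4 and -1.54 in 2-7. Their summed level in myotubes was 530 to 598 CPM in the control line, 865 to 1008 CPM in 2-4 and 888 to 965 CPM in 2-7, against 3555 to 3886 CPM in control myoblasts. In myotubes 19 of the 24 were higher and 0 lower in 2-4 than in the control, and 18 were higher and 4 lower in 2-7. The proliferation list was thus mostly higher in the clones' myotubes, where most called histone genes were lower, and the part of 1 in the other was not tested. Mcm2, a subunit of the replicative helicase, stood at 34.8 CPM in control myotubes and was higher by 0.43 in 2-4 and 0.98 in 2-7 on the log2 scale. Mki67, the Ki-67 antigen of cycling cells, fell from 210 to 17.1 CPM in the control line.

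Slbp, whose product binds the stem-loop shown above, fell from 57.8 ± 1.59 CPM in control myoblasts to 15.6 ± 1.10 CPM in control myotubes (log2 fold change -1.89 ± 0.12, adjusted p = 1.0e-10). It was higher in the myotubes of 2-4 (0.34 ± 0.12, adjusted p = 0.017) and of 2-7 (0.62 ± 0.12, adjusted p = 0.00012) than in those of the control. Npat, the co-activator of replication-dependent histone transcription, fell from 21.3 to 13.7 CPM in the control line (-0.63 ± 0.25, adjusted p = 0.039). Of 28 genes of histone messenger RNA synthesis and processing, Slbp and Npat included, 5 rose and 12 fell in the control line, 2 rose and 18 fell in 2-4, and 3 rose and 16 fell in 2-7. Of 11 genes listed as replication-independent histone genes, none rose, and 9, 9 and 8 fell in the control line, 2-4 and 2-7. H3f3b, an H3.3 gene, went from 529 to 313 CPM in the control line (-0.76 ± 0.10), and H1f0, the linker histone of differentiated cells, from 410 to 271 CPM (-0.59 ± 0.07). H2afz, which encodes H2A.Z, went from 24.3 to 12.6 CPM (-0.94 ± 0.11). H1f0 thus moved the other way from Hist1h1c in the control line. In myotubes H1f0 was lower in 2-4 (-0.54 ± 0.08) and in 2-7 (-0.67 ± 0.08), and so was H3f3b (-0.64 ± 0.10 and -0.88 ± 0.10). Of all 11 genes of that list, 2 were higher and 3 lower in 2-4 myotubes, and 3 higher and 4 lower in 2-7 myotubes. Of 19 histone chaperones and supply genes, 3 rose and 12 fell in the control line, 9 were higher and 2 lower in 2-4 myotubes, and 9 higher and 4 lower in 2-7 myotubes. Over all genes the shares higher and lower were 33.9% and 28.8% for differentiation of the control line, 29.8% and 33.0% for 2-4, and 29.8% and 35.6% for 2-7. They were 26.2% and 30.9% for 2-4 against control myotubes, and 31.0% and 37.0% for 2-7.

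**Figure D5:**
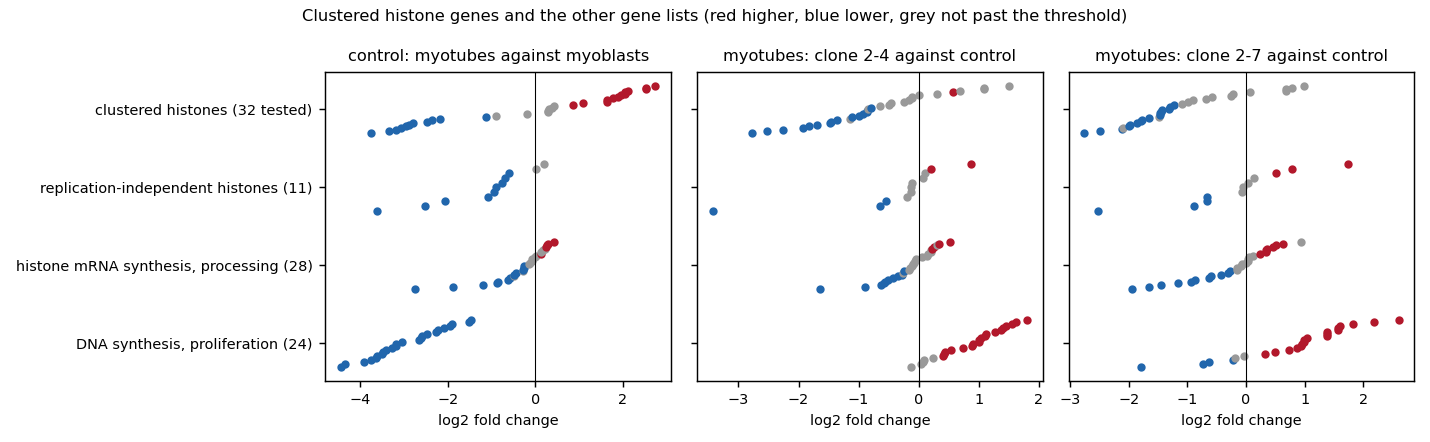
Log2 fold change of each tested gene of the family and of 3 other lists, for control myotubes against myoblasts and for each clone's myotubes against control myotubes (red higher, blue lower, grey not past the threshold; histone genes at 0 in all libraries of a compared group are not drawn). The 24 genes of DNA synthesis and proliferation are all blue in the first panel and mostly red in the other panels, where the called clustered histone genes are blue but for Hist2h2be in 2-4.

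The promoters of the family were compared next, with RefSeq sequences of GRCm38.p6 that reach from 250 bases before to 50 after the start. These matched 61 of the 67 genes in 62 windows. The octamer ATTTGCAT, searched on both strands like the other motifs, was in 22.6% of these windows (14) and 1.7% of all 32851 promoters. TATAAA was in 56.5% (35) against 13.6%, and CCAAT in 85.5% (53) against 37.4%. The octamer stood in 7 of 17 H2A and 7 of 17 H2B windows and in none of the H1, H3 or H4 windows. CCAAT was in 3 of 12 H4 windows and in every window of the other families. The windows take in 50 bases after the start, and in Hist2h3c1 and Hist2h3c2 the 250 bases before it held no CCAAT. Hist1h1c, the most abundant gene, is shown with CCAAT in capitals (chr13:23738557-23738806, plus strand, the 250 bases before the start).
Hist1h1c upstream: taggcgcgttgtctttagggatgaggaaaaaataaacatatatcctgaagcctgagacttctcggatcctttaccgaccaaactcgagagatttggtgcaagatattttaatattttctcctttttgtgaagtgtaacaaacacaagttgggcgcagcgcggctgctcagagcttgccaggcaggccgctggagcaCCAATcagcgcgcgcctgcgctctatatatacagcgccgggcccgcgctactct
A match is a description of these letters and not a bound site.

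In 12 places an H2A and an H2B gene start head to head 175 to 305 bases apart, which places 24 of the 67 genes in pairs with a shared upstream stretch. In most pairs at least 1 partner had too few counts to be tested, and both were tested in 2 pairs. Their whole gaps are shown on the plus strand, with the octamer, TATAAA and CCAAT in capitals on either strand.
Hist1h2ac and Hist1h2bc: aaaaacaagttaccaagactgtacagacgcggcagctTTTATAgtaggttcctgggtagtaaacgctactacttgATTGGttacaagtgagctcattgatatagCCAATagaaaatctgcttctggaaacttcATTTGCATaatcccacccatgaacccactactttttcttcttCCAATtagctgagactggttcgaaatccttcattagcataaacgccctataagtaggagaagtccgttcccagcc
Hist1h2ae and Hist1h2bg: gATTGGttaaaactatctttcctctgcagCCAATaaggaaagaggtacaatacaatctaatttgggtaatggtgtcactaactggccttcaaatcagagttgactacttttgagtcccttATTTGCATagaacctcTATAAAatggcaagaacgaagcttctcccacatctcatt
The first gap (chr13:23683949-23684198, 250 bases) lies between Hist1h2ac on the minus strand and Hist1h2bc on the plus strand, which both rose in the control line, by 1.64 and 2.11 on the log2 scale. In 2-4 they stood at 0.30, not past the test, and 1.78, and in 2-7 at 0.41, not past the test, and 1.30. The second gap (chr13:23571221-23571395, 175 bases) lies between Hist1h2ae on the minus strand and Hist1h2bg on the plus strand. Hist1h2ae fell by 3.07 in the control line, where Hist1h2bg stood at 0.31 ± 0.37 (adjusted p = 0.48). In 2-4 Hist1h2ae fell by 2.24 and Hist1h2bg stood at -0.70 ± 0.39 (adjusted p = 0.12), and in 2-7 Hist1h2ae fell by 2.10 and Hist1h2bg stood at -0.82 ± 0.45 (adjusted p = 0.12). Each gap holds 1 octamer and 1 TATAAA, with 3 CCAAT in the first and 2 in the second. Both partners of a pair share this stretch, and the difference within a pair was not tested.

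The genes most like Hist1h1c over the 6 group means were Hist2h2bb (Pearson r of log2 CPM 0.97), Hist2h3c2 (0.96) and Hist1h2be (0.95) within the family. Hist2h2bb is an H2B gene with a short model, whose exon overlaps those of Gm42743 on the same strand and Gm20628 on the other, and whose mean was 0.101 CPM in control myoblasts and 0.396 CPM in control myotubes. Outside the family, among the other histone lists, the closest were Cpsf3 (0.79), Ipo4 (0.71) and Lsm10 (0.58). These values describe 6 points that share libraries and scaling, and they carry no test.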

How the data were processed

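The authors deposited raw counts per Ensembl gene for 18 libraries of polyA RNA, extracted with TRIzol per the labels' protocols. The submitters' processing notes name STAR 2.7.9a, featureCounts of Subread 2.0.3, the build mm10, FastQC 0.11.7 and DESeq2 1.32.0. The annotation release, strand setting and treatment of multi-mapping reads are not given in the sources used here. Titles gave the line, stage and letter of every library. GENCODE M21 (GRCm38) gave symbols and positions for 55190 of 55450 gene IDs, and the other 260 held 0.00589% of the counts.

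Counts were fitted with edgeR 4.0.16 in R 4.3.3 (TMM, low-count filter by group, robust quasi-likelihood, all 18 libraries in 1 fit of 6 groups, 12 residual degrees of freedom), and p-values were adjusted by Benjamini-Hochberg over 17912 genes at a threshold of 0.05. The script was tested on simulated data. Of the 67 histone genes 32 passed the filter; one that passed through its high group alone had to differ, so counts of changed genes are descriptions. CPM use TMM-scaled library sizes, and a fold change is that of the fit. Limits drawn from the count at which a gene is called detected cover counting error only. The SD and SE values also hold the spread between the libraries of a group. Alternatives were DESeq2 1.42.0 (size factors and Wald test), library totals, filters, a 2-fold test, a replicate block and each library left out.

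The histone genes and the other lists were chosen with earlier results of these data known. Named were the 12 genes with the highest group mean, those with the largest changes per comparison at 1 CPM or more, every H1, Hist3 and Hist4 gene, and 7 genes of other lists. Any other histone gene was named after its values were seen. Deviations of libraries with the same letter had positive correlations in all 3 pairs for 2-4 against control myotubes (0.13, 0.28 and 0.52). The same was so for 2-7 against control myoblasts, with smaller values (0.06, 0.04 and 0.02). With 3 libraries a group this check cannot decide whether the letters pair the libraries, and no label states it. A replicate block left the count for 2-4 against control myotubes at 16. No libraries of a group were duplicates (lowest chi-square per degree of freedom 4.40). The authors' normalised values were not used here. Figures were drawn with matplotlib 3.10.9.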

Additional observations from a re-analysis of the deposited data

Results flagged for a closer look

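These results were singled out because the change from myoblasts to myotubes differed between a clone and the control line by the interaction test of edgeR (adjusted p under 0.05). Both clones were set against the same control libraries, and values are log2 differences between the responses. Among the H1 genes, clone 2-4 differed by -2.17 for Hist1h1d, -1.71 for Hist1h1e and -1.03 for Hist1h1c. Clone 2-7 differed by -1.14, -2.00 and -0.97 for the same genes in the same order. For Hist1h1d in 2-7 the call was lost under both other scalings (adjusted p = 0.074 for each) and without any of several single libraries.

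Among the H2A and H2B genes, Hist3h2a differed by -1.41 in 2-4 and -1.02 in 2-7, Hist1h2be by -1.07 and -2.05, and Hist1h2bc by -0.33 and -0.81. Hist2h2aa2 differed by -2.39 in 2-7. The 2-4 calls of Hist1h2be and Hist1h2bc were lost under other scalings and most single-library omissions. Hist1h2ai was the 1 gene with a higher response, 2.99 in 2-7. It had 20, 10 and 9 counts in control myoblasts and 1, 2 and 2 in control myotubes, and 0, 1 and 7 against 1, 5 and 3 counts in 2-7. That call was lost without library A of the control myoblasts (2.60, adjusted p = 0.094), among others.

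Of the H3 genes, Hist2h3c2 differed by -0.96 in 2-4 and -1.51 in 2-7, and Hist1h3d by -1.83 in 2-4. Of the H4 genes, Hist2h4 differed by -2.06 in 2-4 and -2.00 in 2-7, Hist1h4h by -1.79 and -1.53, and Hist1h4i by -1.13 and -0.90. Hist2h4 lost its calls without library B of the 2-4 myoblasts (-1.65, adjusted p = 0.068) and without library B of the 2-7 myoblasts (-1.58, adjusted p = 0.056). Hist1h4h lost its call in 2-7 without library A of the 2-7 myoblasts (-1.29, adjusted p = 0.072).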

How the results depend on the processing

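No called value of a named gene changed sign among the 1431 values computed, and 1242 kept their call; 45 of 103 gene and comparison pairs kept it under every alternative run. A filter of 1 CPM in 3 libraries left 9 histone genes to test, of which 6 changed in control differentiation, 8 in 2-4, 4 in 2-7, 4 in 2-7 against control myoblasts, 9 and 8 in 2-4 and 2-7 against control myotubes, and 7 differed in response in 2-7. Of all 14346 genes left, 69.1%, 69.9%, 73.4%, 60.8%, 64.0%, 76.0% and 59.2% were called in the same order. Against a 2-fold change 15, 9 and 2 genes passed for differentiation of the control, 2-4 and 2-7, 0 and 1 for 2-4 and 2-7 myoblasts, 7 for 2-4 myotubes, and 1 and 2 for the responses of 2-4 and 2-7, against 19.8%, 19.0%, 14.5%, 8.44%, 11.3%, 15.3%, 8.23% and 10.7% of all genes. Leaving out each library gave 22 to 28, 19 to 24 and 10 to 14 genes for the 3 differentiations, 1 to 4 and 6 to 11 for the myoblasts, 13 to 15 and 15 to 17 for the myotubes, and 9 to 11 and 9 to 14 for the responses. For 2-4 myoblasts the count was 1 without its library A and 4 without its library B. With the replicate block the counts were 25, 22 and 12, 2 and 9, 16 and 16, and 11 and 11, in the same order. Whether the letters pair the libraries could not be decided. Shares of all genes under the block or with a library left out are not given here, so these counts describe the stability of the calls alone. With a mean of at least 1 CPM in place of more than 3 counts, 6 genes were detected in the myoblasts of each line and 11, 7 and 7 in the myotubes of the control, 2-4 and 2-7. The summed level of 2-7 myoblasts came to 70.9 CPM by DESeq2 size factors and to 76.9 by library totals, that of control myotubes 301 with library totals. Library totals moved the all-gene median to -0.24 for 2-7 differentiation and 0.11 for 2-4 against control myotubes. Without genes that have copies or overlaps, 10, 11, 7, 2, 6, 9, 8, 7 and 6 of 17 genes were called, in the order of the block counts. The shares of all genes in the main fit were 62.8%, 62.8%, 65.4%, 40.4%, 53.0%, 57.1%, 68.0%, 39.0% and 50.1% in that order. The causes of these differences were not tested, apart from the smaller number of genes tested. Depth limits the 14 short genes tested, of which Hist1h4h had the highest count in any library, 55.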
